A study of Mus musculus with 14 samples.

Results

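The genes described here encode subunits of the mitochondrial respiratory chain and of ATP synthase, as read on microarrays of sorted FDCPmix cells. They were chosen by name alone. Every array probe counted whose transcript accession pairs with a mouse symbol beginning Nduf (with a, b, c, s or v and a number), Uqcr, Cox4 to Cox8 or Atp5, or with Sdha, Sdhb, Sdhc or Sdhd. This gave 81 genes on 99 probes, out of 31254 genes tested. Complex I holds 35 of them, complex II 4, complex III 7, complex IV 18 and complex V 17. The RefSeq table holds 87 protein-coding genes with such names, and Ndufa11, Ndufa4l2, Ndufb1, Ndufb4b, Ndufb4c and Uqcr10 were not analysed here. The chain genes carried by mitochondrial DNA were not analysed here either. All 81 genes passed the filter on dim probes, and 79 were well above background on all 14 arrays. Cox7b2 was so on 12 arrays and Cox8c on 7.

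The respiratory chain sits in the inner mitochondrial membrane. Complex I passes electrons from NADH to ubiquinone, complex II passes them from succinate, complex III hands them to cytochrome c and complex IV gives them to oxygen. Complexes I, III and IV pump protons, and complex V, the ATP synthase, uses the gradient to make ATP. Neutrophils are known for few mitochondria and for ATP made largely by glycolysis, while erythroid precursors use mitochondria for haem synthesis.

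FDCPmix is a mouse bone-marrow-derived progenitor line that grows in interleukin-3 and can form several blood lineages. Cells were kept in maintenance culture with horse serum and interleukin-3 from conditioned medium, stained for surface antigens and sorted by flow cytometry. The Kit+Gr1-Sca1hi group and the Kit+Gr1-Sca1lo group each had 3 arrays, as did the Kit-Gr1- cells and the Gr1+ cells, and 2 arrays held unfractionated cells. They are called Sca1hi, Sca1lo, Kit-Gr1- and Gr1+ from here on, and Sca1hi and Sca1lo together are the Kit+ cells. No group carried a further treatment or a genetic change that the labels name. All samples come from this 1 cell line, and a fraction is defined by its surface antigens, so it can hold several cell types. The series text calls the samples of a group biological replicates.

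Each value is a level: the log2 processed Cy3 signal minus the 75th percentile of the same array, so a level of 0 lies at that percentile. From 150 ng of RNA per sample, 79.5% to 99.5% of spots were well above background. On 9 of the 12 sorted arrays the interquartile range of log2 signal was 4.17 to 4.92. It was 2.37 on Sca1hi replicate 3, 3.42 on Sca1lo replicate 3 and 3.04 on Gr1+ replicate 3, and these are called the 3 compressed arrays. Unfractionated replicate 1 was narrower still, at 1.78. The chain genes are bright, and their distance above the 75th percentile was smallest on the 2 narrowest arrays, so results are given with the 12 arrays and, in parentheses or in words, without the 3 compressed arrays. That leaves 2 Sca1hi, 2 Sca1lo, 3 Kit-Gr1- and 2 Gr1+ arrays.

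The sorting antigens followed the labels in the fractions whose labels name them. Kit levels ran from -0.18 to 0.77 on the Kit+ arrays and were -1.61, -1.84 and -2.04 on the Kit-Gr1- arrays. Ly6a, which encodes Sca-1, was at -0.52, 0.16 and -0.42 in Sca1hi and at -2.96, -2.38 and -2.40 in Sca1lo. Ly6c1, a Ly6C gene whose product common Gr1 antibodies also bind, was 6.74 ± 0.71 (SE) higher in Gr1+ than in Kit+ cells. The Gr1+ label names neither Kit nor Sca-1. Ly6a was 4.15 higher in Gr1+ than in Kit+ cells and was called, and Kit was 0.29 higher and not called. The Gr1+ fraction was thus not low in Kit or Ly6a RNA. All 10 neutrophil markers were called higher in Gr1+ than in Kit+ cells, with a median log2 difference of 7.17 (8 of 10 and 7.20 without the compressed arrays). Of the markers of other cells, 4 of 6 eosinophil, 4 of 5 monocyte and 4 of 7 mast cell and basophil genes were also called higher there. Of 6 megakaryocyte markers 1, Vwf (2.82), was called higher in Gr1+ and 2 lower, and of 9 erythroid markers 0 and 2. Of all genes 4.36% were called higher in Gr1+ than in Kit+ cells and 3.22% lower. In Kit-Gr1- cells 5 of 9 erythroid and 3 of 6 megakaryocyte markers were called higher than in Kit+ cells, against 0.31% of all genes. The part of this mixture of cells in the values that follow was not tested. In bulk samples, fewer cells of a type and less RNA per cell cannot be told apart.

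Over the 9 sorted arrays that were not compressed, the median level of the 81 chain genes was lowest on the 2 Gr1+ arrays. Over all arrays it was 4.43, 4.87 and 3.85 on the Sca1hi arrays. On the Sca1lo arrays it was 4.72, 4.72 and 4.49. In Kit-Gr1- it was 4.61, 4.84 and 4.91. The Gr1+ arrays gave 4.26, 4.40 and 4.55. Unfractionated cells gave 1.70 and 4.66. The 3 Gr1+ medians lay below all 3 Kit-Gr1- medians, while they overlapped those of the Kit+ arrays. The lowest sorted value, 3.85, belongs to Sca1hi replicate 3, the most compressed sorted array, and the 1.70 to the compressed unfractionated array, while the compressed Gr1+ array had the highest of the 3 Gr1+ medians.

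**Figure D1:**
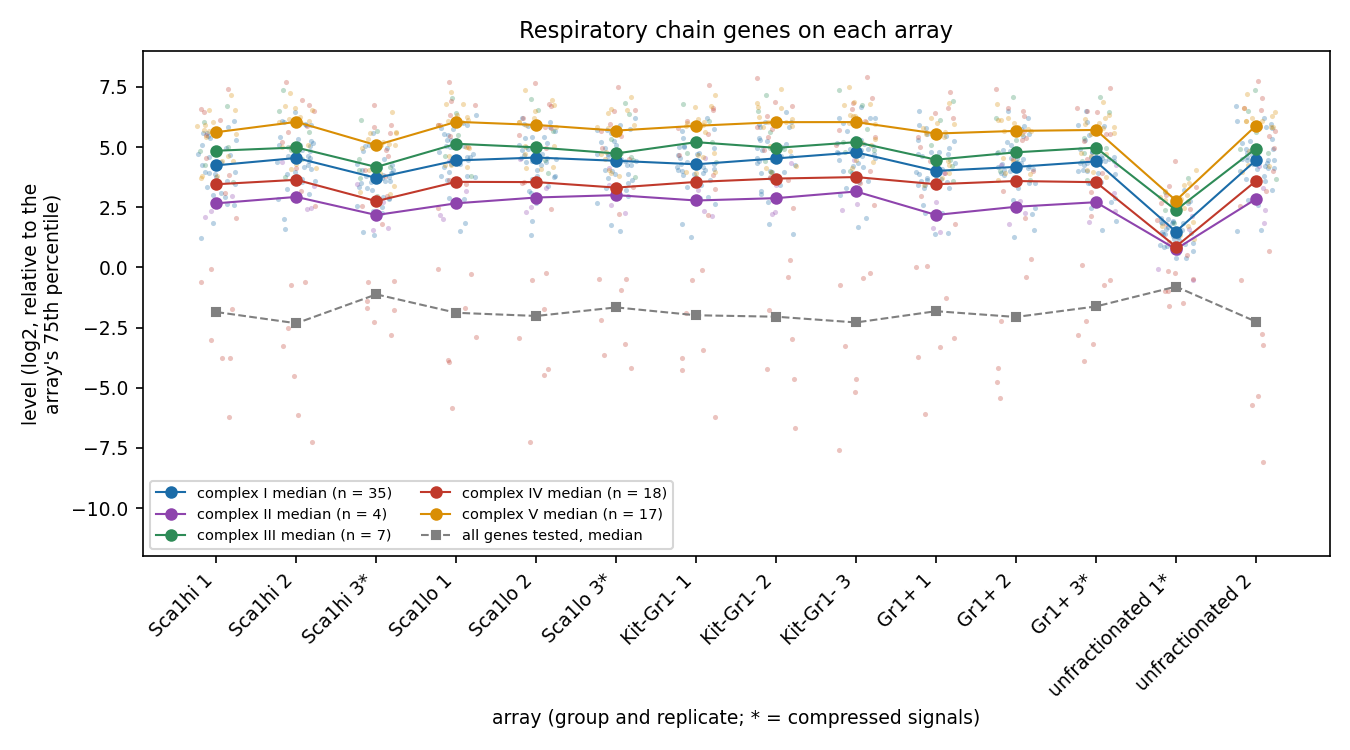
Level of each chain gene (small dots) and the median of each complex (large points) on each of the 14 arrays along the horizontal axis (vertical axis, log2 signal minus the array's 75th percentile), with the median of all genes in grey and a star for compressed arrays. The complex V median is 5.56 to 5.71 on the Gr1+ arrays and 5.88 to 6.04 on the Kit-Gr1- arrays, and is 2.78 on unfractionated replicate 1.

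**Figure D2:**
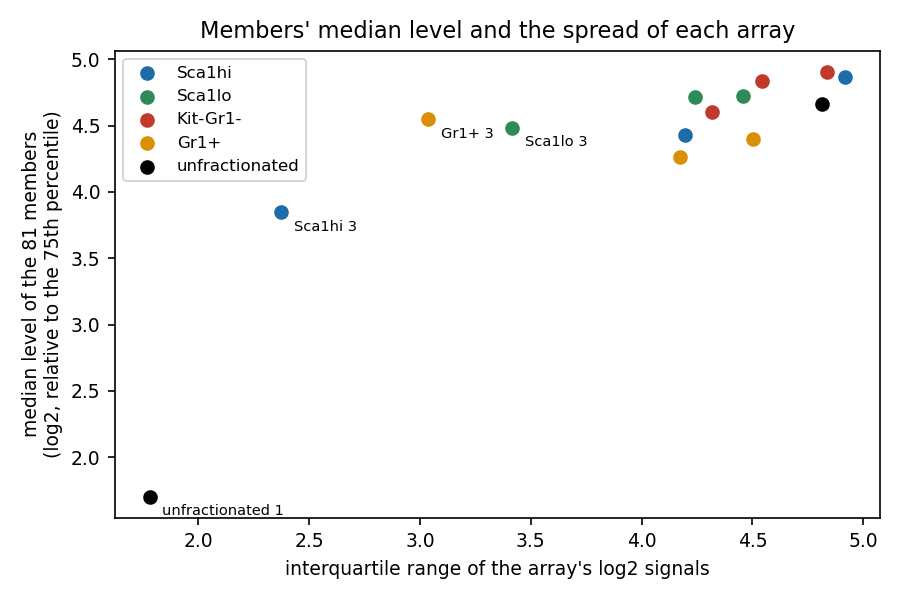
Median level of the 81 chain genes (vertical axis, log2 units) against the interquartile range of log2 signal of the same array (horizontal axis), 1 point per array. The narrowest arrays, with ranges of 1.78 and 2.37, have the lowest medians, 1.70 and 3.85.

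The contrast of Kit-Gr1- with Gr1+ cells held the 1 chain gene called with all 12 sorted arrays. Of the 81 genes, 70 had a higher mean in Kit-Gr1- and 11 a higher mean in Gr1+, with a median log2 difference of 0.29 against -0.20 over all genes tested. Only Ndufs1, the largest catalytic subunit of complex I, passed the test across all genes (limma, Benjamini-Hochberg adjusted p under 0.05). That is 1 of 81 higher and 0 lower, where 2.7% of all genes were called higher and 2.81% lower. At an unadjusted p under 0.05, 4652 of the 31254 genes passed in either direction. The count became 13 without Sca1hi replicate 3, where 7.01% of all genes were called higher, and 0 without any single Gr1+, Kit-Gr1- or Sca1lo array. The levels of 38 of the 81 genes (46.9%) did not overlap between the 3 Kit-Gr1- and the 3 Gr1+ arrays and were higher in Kit-Gr1-, against 13.7% of all genes. Of the chain genes, 2 (2.47%), Cox4i2 and Cox8c, lay wholly higher in Gr1+, against 14.1% of all genes.

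Without the 3 compressed arrays, 13 chain genes were called higher in Kit-Gr1- than in Gr1+ and 0 lower, against 7.02% and 4.14% of all genes. They are 7 of complex I (Ndufs1, Ndufs3, Ndufv2, Ndufa5, Ndufa8, Ndufa12 and Ndufb5), Sdha and Sdhb of complex II, Uqcrc2 of complex III, and Atp5a1, Atp5b and Atp5g3 of complex V. No complex IV gene was among them. With quantile normalization of all 12 arrays 19 were called higher, against 5.31% of all genes, and with the slide as a block 14, against 8.28%. Ndufs1, Ndufs3, Ndufv2, Ndufa5, Ndufa12, Uqcrc2 and Atp5g3 were called in all 3 of these fits, which share arrays and are not separate checks. Within slides 1, 2 and 3, which each hold 1 array of both fractions, the median difference of the chain genes was 0.24, 0.29 and 0.37. On every one of these slides 57 of the 81 genes were higher in Kit-Gr1-. The Gr1+ array on slide 3 is compressed.

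Against the Kit+ cells, Gr1+ cells showed no called chain gene in the fit of all 12 arrays. There were 0 higher and 0 lower of 81 by limma, where 4.36% of all genes were called higher and 3.22% lower and 5032 genes had an unadjusted p under 0.05. The median log2 difference of the chain genes was -0.06, against -0.04 over all genes, with 30 genes higher and 51 lower in Gr1+. Without Sca1hi replicate 3 alone, 9 chain genes were called lower, against 8.1% of all genes. Same-numbered Gr1+ and Kit+ samples deviated together, as did different-numbered ones of replicates 1 and 2. With the replicate number as a block 1 chain gene, Cox7a1, was called higher, against 5.53% of all genes. No chain gene lay wholly lower in Gr1+ (3.98% of all genes did), and Cox7a1 and Ndufa13 lay wholly higher (6.13% of all genes).

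Leaving out the 3 compressed arrays moved this contrast. The median became -0.26, with 66 of 81 genes lower in Gr1+ and 15 higher, and the median over all genes became 0.07. In that fit 12 chain genes were called lower and 0 higher, against 8.37% and 5% of all genes. They are Ndufs1, Ndufs3, Ndufa5, Ndufa12, Ndufb5 and Ndufc2 of complex I, Sdha, Uqcrc2, and Atp5a1, Atp5g3, Atp5k and Atp5o of complex V. Quantile normalization of all 12 arrays gave 28 lower and 5 higher, against 7.19% and 5.99% of all genes. The slide block gave 17 lower and 2 higher, against 10.2% and 6.34%. Ndufs1, Ndufs3, Ndufa5, Ndufa12, Ndufb5, Ndufc2, Atp5g3, Atp5k and Atp5o were called lower in all 3 of these fits. The fits share arrays, so they are not separate checks. Within slides 1, 2 and 3 the median was -0.25, -0.30 and -0.22, and 59 of 81 genes were lower in Gr1+ on each of those slides. Of the Kit+ cells slide 2 holds only Sca1lo and slide 3 only Sca1hi. Each of these slides holds 1 Gr1+ array, and that of slide 3 is compressed. This contrast uses the same 3 Gr1+ arrays as the one with Kit-Gr1- cells.

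**Figure D3:**
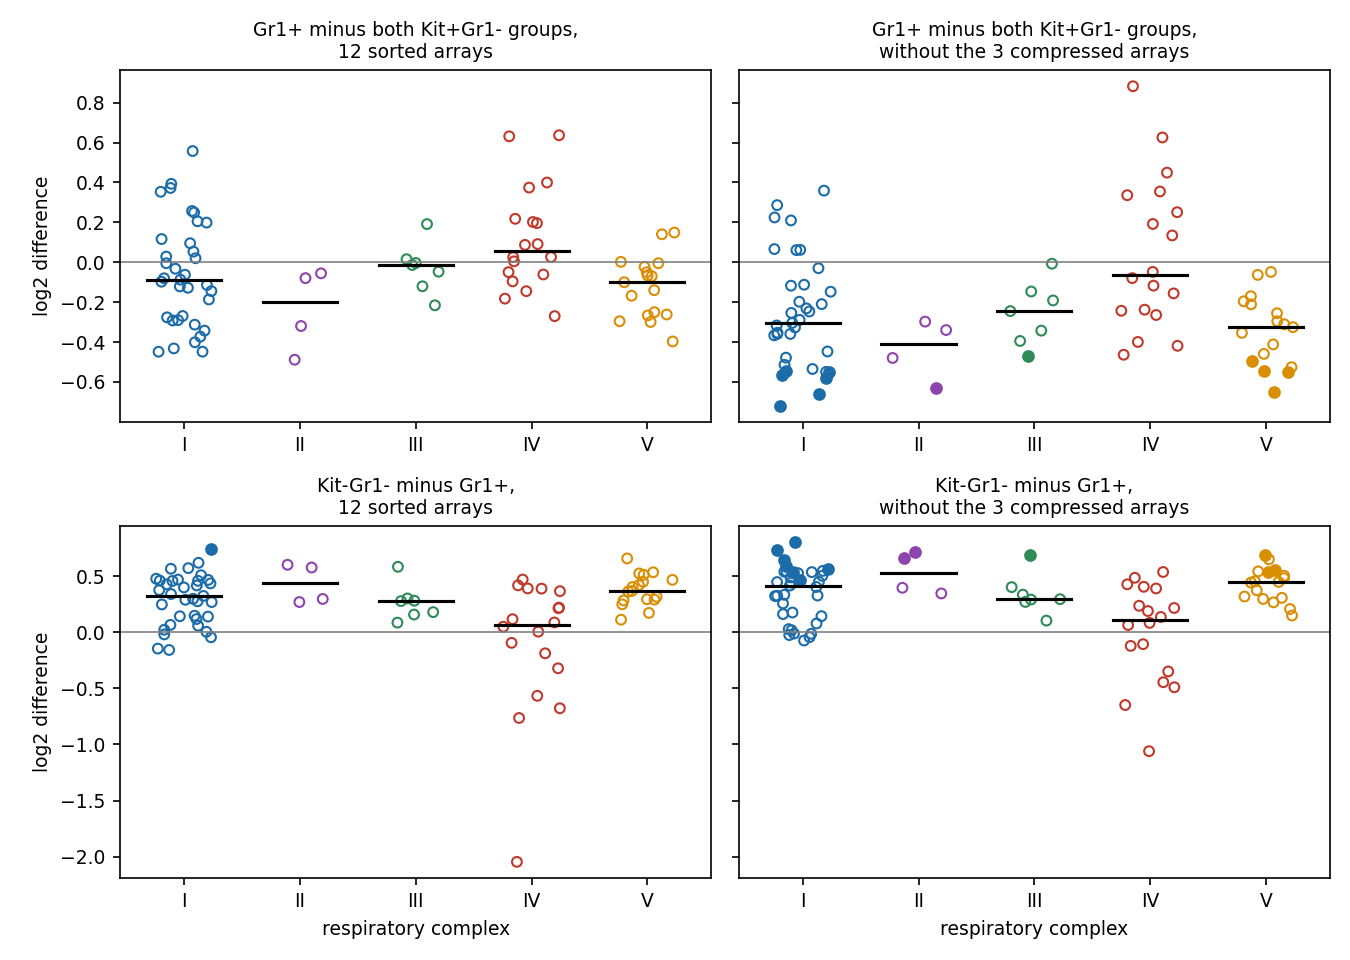
Log2 difference of each chain gene (vertical axis) by complex I to V (horizontal axis), for Gr1+ minus Kit+ and Kit-Gr1- minus Gr1+, from the 12 sorted arrays and without the 3 compressed arrays, where filled points have an adjusted p under 0.05 and the line is the median. In the fit without the compressed arrays 12 genes are filled in Gr1+ against Kit+ and 13 in Kit-Gr1- against Gr1+, and none of these is in complex IV.

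RefSeq promoters, from 250 bases before to 50 after the start on GRCm38.p6, were matched by symbol for 66 of the 81 genes. They were searched on both strands for the letters of 3 factors known to act on chain genes. The NRF1 letters GCGCANGCG were in 19 promoters (28.8%), against 7.03% of the 27025 genes in the table. The GABP letters CCGGAAG were in 17 (25.8%), against 9.93%, and the YY1 letters AAGATGGCG in 7 (10.6%), against 1.64%. At least 1 of these was in 35 promoters (53.0%), against 16.5% of all genes. Because the NRF1 letters are nearly their own reverse complement, a single site can match on both strands, as in Atp5k. The median log2 difference between Gr1+ and Kit+ cells was -0.10 for genes with the NRF1 letters and -0.05 for those without (-0.31 and -0.24 without the compressed arrays). For the GABP letters it was -0.06 with and -0.09 without them (-0.30 and -0.29). For the YY1 letters it was -0.10 and -0.06 (-0.35 and -0.25). These differences were not tested. Shown are the 80 bases before the start, on the strand of the gene, for the genes called lower in Gr1+ without the compressed arrays whose window holds a match. Of the genes so called, Ndufs1, Uqcrc2 and Atp5a1 had no matched promoter and were not searched. Atp5g3 and Atp5o hold the NRF1 letters outside the 80 bases. Capitals mark the NRF1 letters in Atp5k, Ndufa5 and Sdha and the GABP letters in Ndufs3. The windows are chr5:108434400-108434479, chr6:24527691-24527770, chr13:74350241-74350320 and chr2:90904722-90904801, in that order, all on the minus strand. A match describes the letters only and was not tested as a binding site.
Atp5k: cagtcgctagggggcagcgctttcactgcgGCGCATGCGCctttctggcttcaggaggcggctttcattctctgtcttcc
Ndufa5: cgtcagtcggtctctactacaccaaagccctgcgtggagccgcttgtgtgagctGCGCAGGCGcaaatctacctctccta
Sdha: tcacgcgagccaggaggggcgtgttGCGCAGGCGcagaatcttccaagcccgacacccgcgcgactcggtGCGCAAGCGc
Ndufs3: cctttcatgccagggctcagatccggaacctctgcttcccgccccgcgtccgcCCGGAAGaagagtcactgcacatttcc

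In complex I, Ndufs1 carries iron-sulfur clusters of the arm that takes up NADH. Its level was 3.47, 3.95 and 3.31 in Sca1hi, 3.95, 4.03 and 4.04 in Sca1lo, 4.09, 4.01 and 4.19 in Kit-Gr1-, and 3.29, 3.30 and 3.49 in Gr1+. The Gr1+ and Kit-Gr1- arrays did not overlap, and Sca1hi replicates 1 and 3 fell within the Gr1+ range. Ndufs1 was 1.67-fold higher in Kit-Gr1- than in Gr1+ cells (log2 difference 0.74 ± 0.18 SE, limma adjusted p = 0.0312). Its difference was 0.80, 0.71 and 0.71 within the 3 slides. It was 0.80 ± 0.16 without the compressed arrays (limma adjusted p = 0.0118), and the adjusted p ran from 0.000289 to 0.956 over 26 alternative settings, of which 13 passed. Against the Kit+ cells the difference in Gr1+ was -0.43 ± 0.16 with all arrays and -0.55 ± 0.15 without the compressed ones, where it was called.

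Ndufa5, an accessory subunit of the same arm, had levels of 4.77, 5.07 and 4.05 in Sca1hi and 5.31, 5.15 and 4.96 in Sca1lo. It was at 4.99, 4.96 and 5.05 in Kit-Gr1- and at 4.36, 4.35 and 4.60 in Gr1+. Apart from the compressed Sca1hi replicate 3, every other sorted array was above all 3 Gr1+ arrays. In Gr1+ against Kit+ cells the log2 difference was -0.45 ± 0.21 with 12 arrays (limma adjusted p = 0.314) and -0.72 ± 0.13 without the compressed arrays (adjusted p = 0.00639, 1.65-fold lower). Over its 26 alternatives the adjusted p ran from 0.000502 to 1.00 and 8 passed. Ndufa12, another accessory subunit, gave -0.45 ± 0.22 and -0.66 ± 0.14 in the same pair of fits.

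Ndufv2, a core subunit with an iron-sulfur cluster, differed by 0.62 ± 0.21 between Kit-Gr1- and Gr1+ cells with all arrays and by 0.73 ± 0.18 without the compressed ones, where it passed. Its levels were 2.90, 3.06 and 3.30 in Kit-Gr1- and 2.24, 2.47 and 2.70 in Gr1+, with no overlap. Over the whole of complex I, the median difference between Kit-Gr1- and Gr1+ was 0.32 (0.42 without the compressed arrays). Of its 35 genes, 16 did not overlap and were higher in Kit-Gr1-, against 13.7% of all genes. Between Gr1+ and Kit+ cells the complex I median was -0.09 (-0.30), and 26 of 35 genes were lower in Gr1+ on each of slides 1 to 3.

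Some complex I genes ran the other way. Ndufv3, a small accessory subunit, was at 3.07, 3.60 and 2.84 in Sca1hi and 3.41, 3.69 and 3.29 in Sca1lo. It was at 3.34, 3.93 and 3.92 in Kit-Gr1- and 3.55, 4.06 and 4.02 in Gr1+. The Gr1+ levels were among the highest but overlapped those of every other fraction. Its log2 difference in Gr1+ against Kit+ was 0.56 ± 0.21 (limma adjusted p = 0.163), and it was 0.30, 0.37 and 0.42 within slides 1, 2 and 3. Without the compressed arrays it was 0.36 ± 0.23, not called. It passed in 5 of 26 alternatives, the quantile and slide-block fits among them. Ndufa6 differed by 0.39 (0.29 without the compressed arrays), Ndufa1 by 0.37 (0.21) and Ndufa13, which lay wholly higher in Gr1+, by 0.35 (0.22). None of these was called in either fit, while Ndufa1 and Ndufa6 were called higher with quantile normalization. Ndufa4, named for complex I and now regarded as a complex IV subunit, differed by -0.00 with 12 arrays and by -0.21 without the compressed ones.

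Complex II, succinate dehydrogenase, also belongs to the citric acid cycle. Sdha, its flavoprotein, was at 2.35, 2.41 and 1.62 in Sca1hi and 2.02, 2.31 and 2.59 in Sca1lo. It was at 2.33, 2.20 and 2.39 in Kit-Gr1- and 1.46, 1.82 and 1.91 in Gr1+. Every Gr1+ array lay below every Kit-Gr1- and Sca1lo array, and of the Sca1hi arrays the compressed one fell within the Gr1+ range. The log2 difference in Gr1+ against Kit+ was -0.49 ± 0.20 (limma adjusted p = 0.21). Without the compressed arrays it was -0.63 ± 0.15 (adjusted p = 0.0238, 0.0144 to 1.00 over 26 alternatives).

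Sdhb, the iron-sulfur subunit, was at 3.23, 3.43 and 3.68 in Kit-Gr1- and 2.70, 2.76 and 3.07 in Gr1+. On the Kit+ arrays it was at 2.97, 3.40 and 2.73 (Sca1hi) and 3.16, 3.31 and 3.41 (Sca1lo). Gr1+ was below Kit-Gr1- on every array but overlapped Sca1hi. The Kit-Gr1- minus Gr1+ difference was 0.60 ± 0.20 (limma adjusted p = 0.123) and 0.71 ± 0.18 without the compressed arrays (adjusted p = 0.0327, 0.00208 to 0.956 over 26 alternatives). The membrane anchors Sdhc and Sdhd differed by 0.27 and 0.30 (0.40 and 0.35 without the compressed arrays) and were called in neither of these fits. All 4 genes were lower in Gr1+ than in Kit+ cells, and lower than in Kit-Gr1- cells, within each of slides 1 to 3.

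In complex III, Uqcrc2, a core subunit, was at 5.20, 4.97 and 5.20 in Kit-Gr1- and 4.47, 4.40 and 4.75 in Gr1+. It was at 4.85, 4.90 and 4.17 in Sca1hi and 5.002, 4.88 and 4.73 in Sca1lo. The Kit-Gr1- arrays were above all Gr1+ arrays, and without the compressed arrays the Kit+ arrays were too. The Kit-Gr1- minus Gr1+ difference was 0.58 ± 0.22 (limma adjusted p = 0.186) and 0.69 ± 0.13 without the compressed arrays (adjusted p = 0.0103, 0.00468 to 0.956 over 26 alternatives). Its partner core subunit Uqcrc1 differed by 0.30 (0.40 without the compressed arrays), the Rieske iron-sulfur protein Uqcrfs1 by 0.28 (0.29) and the hinge protein Uqcrh by 0.09 (0.10), none called. The complex III median was 0.28 in this contrast and -0.01 in Gr1+ against Kit+ cells (-0.24 without the compressed arrays).

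Complex IV had the smallest median difference of the 5 complexes between Kit-Gr1- and Gr1+ cells, 0.07 (0.11 without the compressed arrays). In Gr1+ against Kit+ cells its median was 0.06 (-0.06). Only 8 of its 18 genes were lower in Gr1+ than in Kit+ on each of slides 1 to 3, against 15 of 17 in complex V. The difference between complexes was not tested. The complex holds several isoform genes of narrow tissue range, each with a widely expressed partner, and no median was taken without them. In Kit-Gr1- against Gr1+ cells 11 of the 18 genes were higher and 7 lower with 12 arrays. The lowest were the isoform genes Cox8c (-2.05) and Cox4i2 (-0.76), so the complex IV median is not that of its widely expressed subunits alone. Cox5b and Cox6b1, subunits found in most tissues, differed by 0.47 and 0.42 between Kit-Gr1- and Gr1+ cells (0.54 and 0.49 without the compressed arrays), called in neither fit. Of the 18 genes, 6 did not overlap and were higher in Kit-Gr1-, against 13.7% of all genes. The other way, 2 genes, Cox4i2 and Cox8c, lay wholly higher in Gr1+, against 14.1%. Quantile normalization called Cox5b and Cox6a1 higher in Kit-Gr1- than in Gr1+, and the slide block called Cox6b1. Quantile normalization also called 5 complex IV genes, Cox5a, Cox5b, Cox6a1, Cox6b1 and Cox7b, lower in Gr1+ than in Kit+ cells.

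Cox7a1, the heart and muscle isoform of subunit VIIa, ran the other way. Its level was -0.61, -0.60 and -0.59 in Sca1hi, -0.27, -0.22 and -0.49 in Sca1lo, -0.53, 0.33 and -0.24 in Kit-Gr1-, and 0.07, 0.33 and 0.12 in Gr1+. All 3 Gr1+ arrays lay above all 6 Kit+ arrays, and the Kit-Gr1- arrays overlapped both. The log2 difference from Kit+ was 0.64 ± 0.19, or 1.55-fold, which missed the threshold (limma adjusted p = 0.0572). It was 0.51, 0.55 and 0.72 within slides 1, 2 and 3 and 0.63 ± 0.23 without the compressed arrays (adjusted p = 0.121, 0.0252 to 0.785 over 26 alternatives, of which 7 passed). With the replicate block it was called (adjusted p = 0.0290). Its partner Cox7a2 differed by 0.20, and by -0.08 without the compressed arrays, so its direction was not settled. The related supercomplex factor Cox7a2l differed by 0.40 (0.19) and was called higher with quantile normalization but in neither of these fits.

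The other isoform genes gave no call in either fit. In Gr1+ against Kit+ cells Cox4i2 differed by 0.22 (0.45 without the compressed arrays), Cox6a2 by 0.37 (0.25), Cox6b2 by 0.03 (0.13), Cox8b by 0.09 (0.35) and Cox7b2 by 0.00 (0.34). Of their partners, Cox6a1 differed by -0.06 (-0.26), Cox6b1 by -0.27 (-0.46) and Cox7b by -0.14 (-0.40). Cox4i1, at 0.20 (-0.05), and Cox8a, at 0.03 (-0.16), turned sign without the compressed arrays. Cox8c, a testis isoform, had its highest sorted levels, -1.68, -2.81 and -4.20, on the 3 compressed arrays, against -5.43 to -7.59 on the other 9. It was well above background on 7 of 14 arrays. Its difference in Kit-Gr1- against Kit+ cells was -1.41 with 12 arrays and -0.18 without the compressed ones.

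In complex V, Atp5g3 encodes a copy of the membrane c subunit, whose ring turns as protons pass. Its level was 6.52, 6.71 and 5.60 in Sca1hi, 6.81, 6.95 and 6.55 in Sca1lo, 6.65, 6.84 and 6.86 in Kit-Gr1-, and 6.003, 6.19 and 6.18 in Gr1+. Apart from the compressed Sca1hi replicate 3, at 5.60, every other sorted array was above the Gr1+ arrays. The Gr1+ minus Kit+ difference was -0.40 ± 0.25 with 12 arrays (limma adjusted p = 0.586). It was -0.65 ± 0.13 without the compressed arrays (adjusted p = 0.0125, 1.57-fold lower), with 4.09e-05 to 1.00 over 26 alternatives. The difference within slides 1, 2 and 3 was -0.66, -0.76 and -0.52.

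The same c subunit protein is made from Atp5g1 and Atp5g2, whose differences were -0.25 and -0.07 (-0.53 and -0.21 without the compressed arrays), not called in either fit. Atp5a1 and Atp5b encode the alpha and beta subunits of the catalytic head. They were 0.53 and 0.51 higher in Kit-Gr1- than in Gr1+ cells, and 0.56 and 0.54 without the compressed arrays, where both passed. The median of the 17 genes was 0.37 in this contrast (0.45), and -0.10 in Gr1+ against Kit+ (-0.33). All 17 were higher in Kit-Gr1- than in Gr1+ within each of slides 1 to 3. Over the 3 arrays a side 11 did not overlap, against 13.7% of all genes in that direction.

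**Figure D4:**
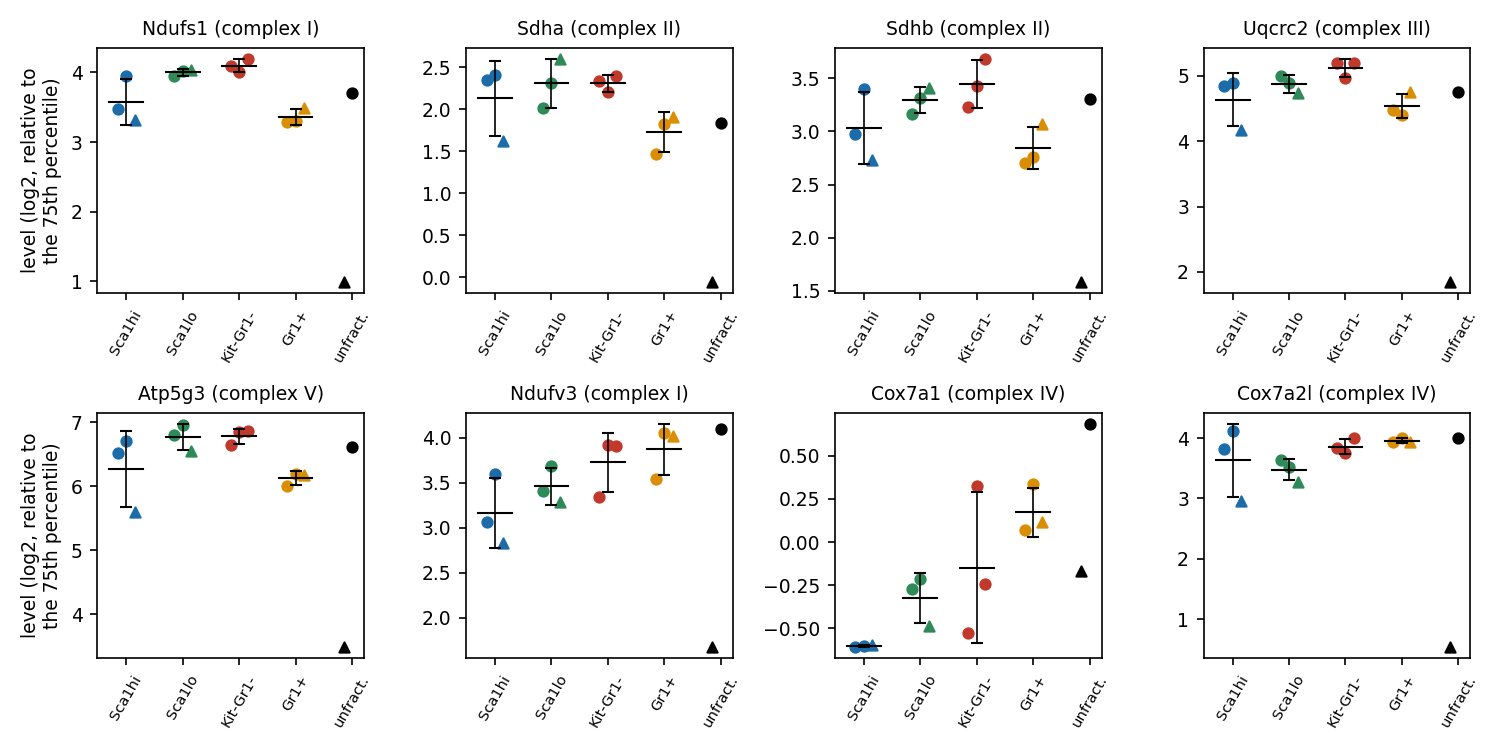
Level of 8 chain genes (vertical axis, log2 signal minus the array's 75th percentile) in each fraction (horizontal axis), with 1 point per array, triangles for compressed arrays, and a line and bar for the mean and SD of 3 arrays; unfractionated arrays are points only. Ndufs1, Sdha, Sdhb, Uqcrc2 and Atp5g3 are lower on the Gr1+ than on the Kit-Gr1- arrays without overlap, while Cox7a1 is above all Kit+ arrays in Gr1+.

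Kit-Gr1- cells, compared with Kit+ cells, gave no called chain gene. There were 0 higher and 0 lower by limma, with 0.31% and 0.0672% of all genes called and 1886 genes at an unadjusted p under 0.05. The median was 0.24, with 76 of 81 genes higher, against -0.23 over all genes. The complex medians ran from 0.20 in complex IV to 0.26 in complex III. Ndufa6 (0.46, and 0.30 without the compressed arrays), Atp5pb (0.42 and 0.27), Ndufv3 (0.41 and 0.29) and Uqcrc2 (0.37 and 0.22) were among the highest values and Ndufc2 (-0.05 and -0.25) among the lowest. Without the compressed arrays, which include 2 of the 6 Kit+ arrays and no Kit-Gr1- array, the median was 0.08, with 64 of 81 genes higher. There were again 0 called, against 0.333% and 0.138% of all genes. Within slides 1, 2 and 3 it was -0.04, 0.01 and 0.17.

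Between Sca1hi and Sca1lo cells no gene of the array was called. By limma 0 of 81 chain genes and 0% of all genes were called either way, with all arrays and without the compressed arrays, and 264 genes had an unadjusted p under 0.05. The chain median was -0.32, with 78 of 81 genes lower in Sca1hi, against -0.02 over all genes. It was -0.16 without the compressed arrays, with 72 of 81 lower, -0.33 within slide 1 and -0.70 within slide 4, whose 2 sorted arrays are both compressed. Cox7a2 (-0.61, and -0.44 without the compressed arrays) and Ndufa5 (-0.51 and -0.31) had low values, and Cox7a2l was at 0.15 (0.39).

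Genes that build, feed or regulate the chain were read from lists beside the members, and their counts stand against the same shares of all genes called in Gr1+ against Kit+ cells: 4.36% higher and 3.22% lower with 12 arrays, and 5% and 8.37% without the compressed arrays. Of 13 complex I assembly factors, 2 were called lower (limma, 12 arrays) and 0 higher. These are Ndufaf4 (log2 difference -0.98 ± 0.16, adjusted p = 0.00255) and Ecsit (-0.80). Of 27 assembly factors for complexes II to IV, 1, Coa7 (-0.62), was called lower, and of 2 for complex V, 0. Without the compressed arrays 5 of 13, 4 of 27 and 0 of 2 were called lower and 0 higher.

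Of 18 citric acid cycle genes, 2 were called lower in Gr1+ and 0 higher (5 and 0 without the compressed arrays). These are Suclg2, a subunit of succinyl-CoA ligase (-1.06 ± 0.17, limma adjusted p = 0.00222), and Idh3a, a subunit of isocitrate dehydrogenase (-0.65). Of 18 electron carriers and donors, 2 were higher and 2 lower (2 and 5). Sqor, which passes electrons from sulfide to ubiquinone, was the largest at 4.90 ± 0.54 (adjusted p = 0.000112). Coq8b (0.72) was also higher, and Pdss1 (-0.75), which makes the side chain of ubiquinone, and Dhodh (-0.73) were lower. Of 8 adenine nucleotide, phosphate and related carriers, 1, Ucp2 (0.99), was called higher and 0 lower. Without the compressed arrays Ucp2 was at 0.90 and not called, and Slc25a4 (-0.64), Slc25a5 (-0.63) and Vdac3 (-0.60) were called lower.

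Of 19 regulators of mitochondrial biogenesis, 4 were called lower in Gr1+ and 1 higher (6 and 0 without the compressed arrays). Ppargc1b, a coactivator of chain genes, differed by -1.10 ± 0.18 (limma adjusted p = 0.00163). Gabpb1, a GABP subunit (-0.77), Tfam, which packages and transcribes mitochondrial DNA (-0.76), and Tfb1m (-0.59) were also lower. Polg, the mitochondrial DNA polymerase, was higher (0.73), a call lost without the compressed arrays (0.57). Nrf1 (-0.31), Gabpa (-0.17) and Yy1 (-0.11), whose letters were searched in the promoters, were not called in either fit. Between Kit-Gr1- and Gr1+ cells, 2.7% of all genes were called higher and 2.81% lower with 12 arrays. Higher in Kit-Gr1- were 2 of 13 complex I assembly factors, 1 of 27 for complexes II to IV and 0 of 2 for complex V. So were 2 of 18 citric acid cycle genes, 2 of 18 electron carriers and donors, 0 of 8 carriers and 2 of 19 regulators. The electron carriers were Cycs, the cytochrome c gene (0.87, limma adjusted p = 0.043), and Pdss1. Sqor (-4.51) was the 1 gene of these lists called lower. With 12 arrays no gene of these lists was called in Kit-Gr1- against Kit+ or in Sca1hi against Sca1lo.

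**Figure D5:**
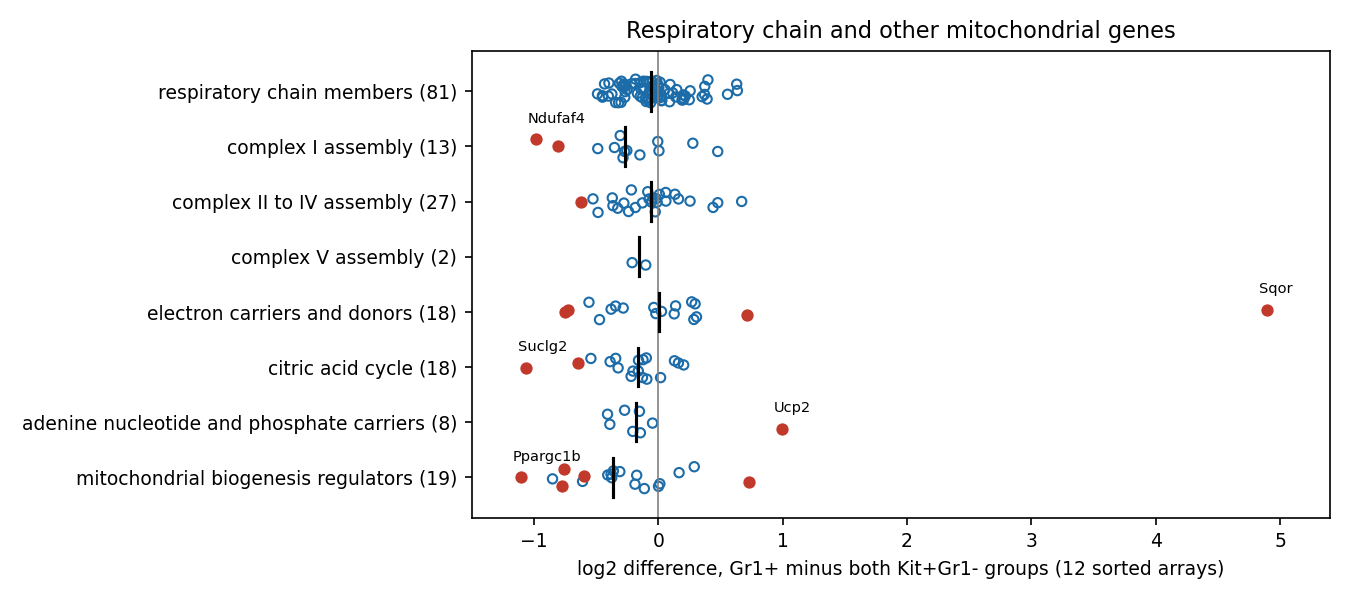
Log2 difference between Gr1+ and Kit+ cells (horizontal axis) for the chain genes and 7 lists of related genes (vertical axis), from the 12 sorted arrays, with red filled points at adjusted p under 0.05 and a line at each list's median. No chain gene is filled, while Ndufaf4, Suclg2 and Ppargc1b lie near -1 and Sqor at 4.90.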

How the data were processed

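Total RNA of 14 FDCPmix samples was hybridised to 1-colour Agilent arrays, per the labels. Each deposited scanner file gives Cy3 intensity per spot, made by the authors with Agilent Feature Extraction 10.1.1.1, per the file headers. The deposited series table holds the log2 of the same processed signal, unscaled (largest difference 5e-09). The array annotation names build mm8, so no array coordinates are printed. Control and outlier-flagged spots were left out, spots of a probe averaged in log2, and each array's 75th percentile subtracted. Of 41174 probes, 23366 were paired with a symbol through RefSeq accessions of the GRCm38.p6 table. A probe was kept if 3 or more of the 12 sorted arrays flagged it well above background (38888 probes), and the kept probe of highest mean stood for its gene. Of the members, 67 had 1 probe and 14 several. The probes of a member lay at most 0.41 apart in a comparison. Signs differed for Uqcrc1 in Gr1+ against Kit+ (-0.12 and 0.03) and for Ndufv3 in Sca1hi against Sca1lo (-0.29 to 0.12). In Kit-Gr1- against Kit+ cells the 3 Ndufv3 probes ran from 0.07 to 0.41.

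The 4 sorted groups were fitted together with limma 3.58.1 (R 4.3.3, lmFit and eBayes with trend, 8 residual degrees of freedom), two-sided, with Benjamini-Hochberg adjustment over all 31254 genes and calls at 0.05. The fit was tested on simulated data. Figures were drawn with matplotlib 3.10.9 and tables made with numpy 2.4.6 and pandas 2.3.3 under Python 3.11.15. Array number limits the precision.

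Genes were named by rule: members called, the extremes of each complex, isoform genes with their partners, and the leading called genes of the other lists. Genes called under an alternative and the 4 printed promoters were picked after values were seen. Members and lists were chosen with earlier results of these data known.

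Alternatives changed the scaling, background correction, probe filter, probe choice, arrays, array weights, slide block, replicate block and call rule, and left out each array in turn. The normexp alternative (offset 50) took the median foreground in place of the planned mean. Same-numbered samples were checked for shared deviations from their group means. All 6 same-number pairs between Gr1+ and Kit+ (r = 0.607 to 0.851) and all 3 between Sca1hi and Sca1lo (0.683 to 0.855) exceeded 0.1, but 2 of 6 between Kit-Gr1- and Kit+ and 2 of 3 between Kit-Gr1- and Gr1+ did. Different-numbered pairs of replicates 1 and 2 among Sca1hi, Sca1lo and Gr1+ also exceeded 0.1 (r = 0.289 to 0.623), so the check does not establish pairing. The main fit therefore assumed no pairing in any comparison. The replicate number entered only in the replicate-block alternative, over all sorted arrays, and the labels do not state that equal numbers are paired. Replicate 3 of Sca1hi, Sca1lo and Gr1+ is the compressed array of each, so pairing and compression cannot be told apart.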

Additional observations from a re-analysis of the deposited data

How the results depend on the processing

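Counts of called members depended on the arrays and the scaling. Kit-Gr1- against Kit+ cells gave 19 higher with array weights, and a median of 0.56 when arrays were scaled to their median, which moved the median of all genes from -0.23 to 0.09. For Gr1+ against Kit+ cells, members higher numbered 3 with array weights, 1 with the mean of a gene's probes, 5 with quantile normalization and 2 with the slide block. Members lower numbered 17 with array weights, 13 with the deposited unscaled values, 28 with quantile normalization, 17 with the slide block and 12 without the 3 compressed arrays. Kit-Gr1- against Gr1+ cells gave 0 higher with all 14 arrays, 0 with arrays scaled to their median (members' median 0.60), 32 with array weights, 3 with unscaled values, 19 with quantile normalization, 14 with the slide block, 13 without the compressed arrays and 0 at 2-fold or more. The Sca1hi minus Sca1lo median was -0.70 within slide 4. The shares of all genes called with array weights, probe means and unscaled values are not given here. Counts under those settings therefore show dependence on the setting and are not read as a trait of the members. The causes were not tested.

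Leaving out each array in turn gave, for Gr1+ against Kit+ cells, 0 to 1 higher and 0 to 9 lower, with 9 lower without Sca1hi replicate 3. For Kit-Gr1- against Gr1+ it gave 0 to 13 higher, with 13 without Sca1hi replicate 3 and 0 without any single Gr1+, Kit-Gr1- or Sca1lo array. Both of the next settings were added after seeing the data. Scaled to the members' median, 10 members were higher and 2 lower in Gr1+ than Kit+ cells, against 6.99% and 3.78% of all genes. In Kit-Gr1- against Gr1+ cells 0 were higher and 8 lower, against 1.66% and 6.54%. This scale moves every gene by the same amount in a comparison, so Cox4i1, at 0.01 in the latter, stood at -0.37 by construction. The scale is set from the members themselves, so these counts are not read as a trait of the members. Quantile normalization without the compressed arrays gave 1 higher and 27 lower in Gr1+ than Kit+ cells and 27 higher in Kit-Gr1- than Gr1+. The share of all genes called in that setting is not given here, so these counts show dependence on the setting only. With the replicate number as a block, 1 member, Cox7a1, was higher in Gr1+ than in Kit+ cells, and the block moved no other count of called members by over 1.5 times. Of 2934 recomputed values of named members, 125 newly passed the threshold, 13 lost their call and 171 uncalled ones changed sign. The normexp setting used median foreground, and spots well above background (79.5% to 99.5%) limit little for the members apart from Cox7b2 and Cox8c.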

Other observations

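With each array scaled to the median level of the 81 members, a setting added after the values were seen, differences are relative to the chain as a whole. In Gr1+ against Kit+ cells 10 genes were then called higher by limma, against 6.99% of all genes: Ndufv3 (0.67), Cox7a2l (0.51), Ndufa6 (0.50), Ndufa1 (0.48), Ndufa13 (0.46), Ndufb11 (0.36), Cox4i1 (0.31), Uqcrh (0.30), Atp5l (0.26) and Atp5h (0.25). Ndufa5 (-0.34) and Atp5g3 (-0.29) were called lower, against 3.78% of all genes. On this scale a value shows unequal change within the chain and not the direction of the chain.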
